A study of Homo sapiens with 18 samples.

Results

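The genes described here are 10 regulators of the G1 phase of the cell cycle: the D cyclins CCND1, CCND2 and CCND3, their kinases CDK4 and CDK6, the E cyclins CCNE1 and CCNE2, and the CDK inhibitors CDKN1A (p21), CDKN1B (p27) and CDKN2A (p16 and ARF). They were chosen by name, and each of the 10 matched 1 of the 58302 genes in the table. Messenger RNA was sequenced in 18 libraries, 3 for each of 6 groups. TPC1 is a cell line from a human papillary thyroid carcinoma, and D11 is a single Dicer1 (+/-) clone that the study derived from it by CRISPR-Cas9, so an effect of the lost allele cannot be told apart from other features of that clone. Cells of each line were left non-transfected (NT), received a negative control siRNA (NC) or received siRNA against Dicer1 (siDicer), both siRNAs at 5 nM, and RNA was taken on day 4. For tests of siDicer, NT and NC of the same line were joined as 6 controls.

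Cyclin D bound to CDK4 or CDK6, and then cyclin E bound to CDK2, phosphorylate the retinoblastoma protein, which releases the E2F factors that transcribe the genes of S phase. CDKN2A binds CDK4 and CDK6, while CDKN1A and CDKN1B act mainly on the cyclin E and CDK2 complex. Dicer cuts precursor hairpins into mature microRNAs, and several microRNA families are known to bind the transcripts of these genes, miR-221 on CDKN1B and the miR-15 family on cyclin transcripts among them. BRAF or RET lesions drive most papillary thyroid carcinomas, and cyclin D1 is often abundant in these tumors.

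For 7 of these microRNAs, the mature sequence is shown because its seed was searched in the 3′ UTRs of the 10 genes. The sequences are from RefSeq on GRCh38, 5′ to 3′, and capitals mark the seed, bases 2 to 8.
let-7a-5p: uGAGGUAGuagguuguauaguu
miR-15a-5p: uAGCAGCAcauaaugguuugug
miR-17-5p: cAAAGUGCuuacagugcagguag
miR-24-3p: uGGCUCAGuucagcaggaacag
miR-26a-5p: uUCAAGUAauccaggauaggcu
miR-34a-5p: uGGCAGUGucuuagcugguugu
miR-221-3p: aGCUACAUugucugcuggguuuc

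Each of these seeds stands for a family. The RefSeq table held 11 mature microRNAs with the let-7a seed, 7 with that of miR-15a, 8 with that of miR-17, 4 with that of miR-26a, 3 with that of miR-34a and 2 with that of miR-221, while the miR-24 seed was found in that microRNA alone. The levels of these microRNAs were not measured, since the libraries hold poly-A selected RNA.

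The reverse complement of a seed (CTACCTC for let-7a, TGCTGCT for miR-15a, GCACTTT for miR-17, CTGAGCC for miR-24, TACTTGA for miR-26a, CACTGCC for miR-34a and ATGTAGC for miR-221) was looked for on the transcript strand of each gene's canonical 3′ UTR. At least 1 of the 7 was present in 8 of the 10 genes, and the UTRs of CDK4 and CDKN2A held none of these letters. CDK6 held 8 matches to 5 seeds, but its 3′ UTR is 10219 bases long, and 35.5% to 79.9% of 3′ UTRs of similar length (within 25%) hold each of those 5 matches. CDKN1B held 2 matches to the miR-221 seed in a UTR of 1342 bases, where 5.9% of 2986 UTRs of similar length hold any. CCNE1 held 2 matches to the miR-15a seed in 535 bases, where the share is 10.2%, and 1 to the miR-26a seed, where it is 3.7%. These matches are a description of the letters and not evidence of binding. A few are printed, for the 3 genes that were higher after siDicer in D11 (CDKN1B, CDK6 and CCND1) and for CCNE1, whose short UTR holds 2 matches to the miR-15a seed. Genes that were lower in D11 held matches too, CCND3 to the miR-15a and miR-24 seeds and CCNE2 to the miR-34a seed. For the CCND1 matches, 37.6% (miR-15a) and 40.8% (miR-17) of UTRs of similar length hold any. Positions are on GRCh38 with UTRs from GENCODE release 44, each stretch is 24 bases of 3′ UTR on the transcript strand, and capitals mark the match.
CDKN1B and miR-221, first match, chr12:12721213-12721236, plus strand: ctctaaaagcgttggATGTAGCat
CDKN1B and miR-221, second match, chr12:12721286-12721309, plus strand: tagtttttaccttttATGTAGCac
CDK6 and miR-34a, first match, chr7:92614044-92614067, minus strand: gtactttctgccacaCACTGCCtt
CCND1 and miR-15a, chr11:69653300-69653323, plus strand: ctctttcacattgttTGCTGCTat
CCND1 and miR-17, chr11:69652281-69652304, plus strand: ccattccatttccaaGCACTTTca
CCNE1 and miR-15a, first match, chr19:29824009-29824032, plus strand: agtgcgtgctcccgaTGCTGCTat

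Values are normalised read counts per 20 M reads (M is the SI prefix mega), and the 18 libraries held 11.3 to 23.2 M reads (median 15.9 M). DICER1, the targeted gene, was at 1397 to 2492 in the TPC1 controls and 246 to 395 in TPC1 siDicer, and at 655 to 1536 and 277 to 451 in D11. For 12 of 18 samples the title and the description give different groups. The description was used, and along it the DICER1 values of siDicer separate from those of the controls. Within the controls DICER1 was higher in NC than in NT. In TPC1 it was at 1901 to 2492 in NC against 1397 to 1582 in NT, and in D11 at 1407 to 1536 against 655 to 1157. The log2 change of DICER1 between NC and NT was 0.58 in TPC1 (limma, adjusted p = 0.133) and 0.71 in D11 (adjusted p = 0.153). PAX8, a thyroid transcription factor, lay between 7361 and 14886, FOXE1 between 61 and 214 and TG, the thyroglobulin gene, between 32 and 124. TSHR and SLC5A5, further genes of the differentiated thyrocyte, did not exceed 2, and NKX2-1 was at 0 throughout. Of 7 thyroid markers, 3 had a mean of 10 or more. EPCAM and CDH1 did not exceed 6 and 8, whereas KRT8 and KRT18 were abundant. Summed markers of leukocytes (4 genes) were 2 to 26, of endothelium (3 genes) 2 to 18 and of fibroblasts (4 genes, COL1A1 nearly alone) 38 to 137. Of the 24 marker genes, KRT7 alone was called, higher with siDicer in TPC1 by 0.82 on the log2 scale (adjusted p = 0.0231), and the part of such changes in the results was not tested. The 3 TPC1 libraries numbered 2 stood apart from the others of their groups, with a chi-square per degree of freedom of 16.0 to 40.9 against 4.4 to 7.2 between replicates 1 and 3. D11 NT replicate 1 also stood apart (19.5 and 35.1 against 6.1). Values without these libraries are given beside the main results for the genes whose call or size they touch.

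Levels were first compared between genes per kb of exon (the union of annotated exons). CCND1, CDKN1A and CDK4 were the most abundant of the 10 genes in every group. In TPC1 NT, CCND1 was at 2117, CDK4 at 1614 and CDKN1A at 1266 per kb, and no 2 of these 3 overlapped between libraries. CCNE2 followed at 395.9, and its libraries overlapped those of CDKN2A at 299.4. Below these came CCND3 at 208.5, CDKN1B at 104.3, CDK6 at 90.1 and CCNE1 at 52.8, and among the last 3 each gene overlapped its neighbour. In D11 NT the order was CCND1 (2303), CDKN1A (1905), CDK4 (1785), CCNE2 (425.3), CDKN2A (303.0), CCND3 (242.3), CDKN1B (98.9), CDK6 (92.1) and CCNE1 (68.1). CDKN1A and CDK4 overlapped there, as did CDKN2A and CCND3, CDKN1B and CDK6, and CDK6 and CCNE1. The order depends on the length used: per kb of the canonical transcript, which is 2.41 kb for CDKN1B against an exon union of 9.26 kb, CDKN1B was at 400.5 in TPC1 NT and CDK4 (2677) stood above CCND1 (2379). CCNE1 and CDK6 were in the lowest ranks of the detected genes on both lengths in that group.

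**Figure D1:**
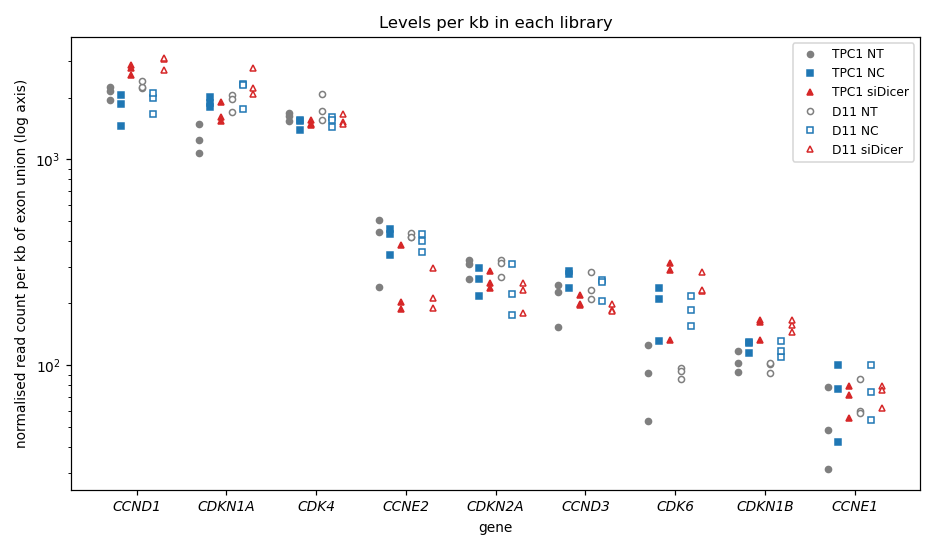
Normalised read count per kb of exon union (log axis) for 9 genes, ordered by mean, with 1 point per library and 3 libraries in each of the 6 groups (filled symbols TPC1, open symbols D11). CCND1, CDKN1A and CDK4 lie above the other 6 genes in every library, and CDK6 covers a wide range between NT and siDicer. CCND2 is left out because 15 of its 18 values are 0.

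CCND1 was the most abundant D cyclin transcript in every group, by an amount that depends on the length used. CCND2, the D cyclin of lymphoid and gonadal cells, had reads in 3 of 18 libraries, 4 reads in all and at most 2 in a library, with a highest value of 3. The upper limit that a count of 0 allows (3 reads) was 2.58 to 5.32 per library, so no group difference was detectable at this depth and CCND2 was not tested. The other 9 genes passed the filter on low values and were tested in every comparison. Per kb of exon union, CCND1 made up 90.2% to 92.65% of D cyclin transcripts in the TPC1 NT libraries and 88.7% to 91.5% in D11 NT. The share was 85.9% to 87.8% in TPC1 NC and 92.69% to 93.55% in TPC1 siDicer, and 88.5% to 89.2% in D11 NC and 93.6% to 94.4% in D11 siDicer. In both lines the siDicer libraries therefore lay above all control libraries in this share. CCND3 has an exon union of 5.76 kb but a canonical transcript of 2.03 kb, so CCND3 weighs more on the second length. Per kb of the canonical transcript, CCND1 and CCND3 were at 2379 and 593 in TPC1 NT and at 2014 and 760.3 in TPC1 NC.

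CCND1, the cyclin that partners CDK4 and CDK6 after mitogen signals, lies on chromosome 11 (69641156 to 69654474, plus strand). It shares 497 exon bases with LTO1 on the opposite strand. In TPC1 it measured 10745, 9246 and 10250 in NT, 8903, 6888 and 9812 in NC, then 12211, 13309 and 13691 with siDicer. In D11 it measured 10606, 10762 and 11519 in NT, 9456, 7910 and 10065 in NC, then 12889, 14602 and 14850 with siDicer. Every siDicer library lay above every control library of its line, and in D11 every NC library also lay below every NT library. The log2 change of siDicer against the controls was 0.50 ± 0.13 (SE) in TPC1 with an adjusted p of 0.0238, and 0.50 ± 0.11 in D11 with an adjusted p of 0.00799 (limma, Benjamini-Hochberg over all genes). Both pass the p threshold of 0.05 and miss the fold of 1.5 that a call also requires. The call depended on the control: against NC alone the log2 change was 0.63 in both lines, with adjusted p of 0.0275 and 0.00432, and CCND1 was called in both. NC measured below NT by a log2 change of -0.25 in TPC1 (adjusted p = 0.556) and -0.27 in D11 (adjusted p = 0.339). Against NT alone it was 0.38 (adjusted p = 0.0564) in TPC1 and 0.36 (adjusted p = 0.0227) in D11. Without the TPC1 libraries numbered 2, the TPC1 change against the joined controls was 0.385 (adjusted p = 0.0139). With trends of GC content and transcript length removed from each library, it was 0.46 in TPC1, which missed the p threshold (adjusted p = 0.0514). In D11 it was then 0.43 (adjusted p = 0.0284).

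CCND3, the most broadly expressed of the D cyclins, was lower with siDicer in D11. Its 3 siDicer libraries, at 1065, 1140 and 1059, lay below the 6 control libraries (1177 to 1636, median 1402), with a log2 change of -0.34 ± 0.11 and an adjusted p of 0.0474, short of the fold threshold. The p threshold was passed against neither control alone: the D11 change was -0.35 against NT (adjusted p = 0.0708) and -0.33 against NC (adjusted p = 0.0652). It was also missed with GC and length trends removed (-0.23, adjusted p = 0.158). In TPC1 the siDicer values of 1125, 1271 and 1143 lay within the control range of 888 to 1652, and the log2 change was -0.19 with a 95% interval of -0.56 to 0.18. The lowest of those controls was NT replicate 2. Without the 3 TPC1 libraries numbered 2 the TPC1 change was -0.39 with an adjusted p of 0.0249. With all TPC1 libraries it depended on the control, at -3e-04 against NT alone and -0.38 against NC alone (adjusted p = 0.0518). Per kb of exon union, CCND1 exceeded CCND3 by 6.11 to 12.6 times in the TPC1 controls and by 12.7 to 14.5 times in TPC1 siDicer. In D11 it did so by 7.66 to 10.7 times in the controls and 14.6 to 16.97 times in siDicer. These ratios are smaller per kb of the canonical transcript.

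**Figure D2:**
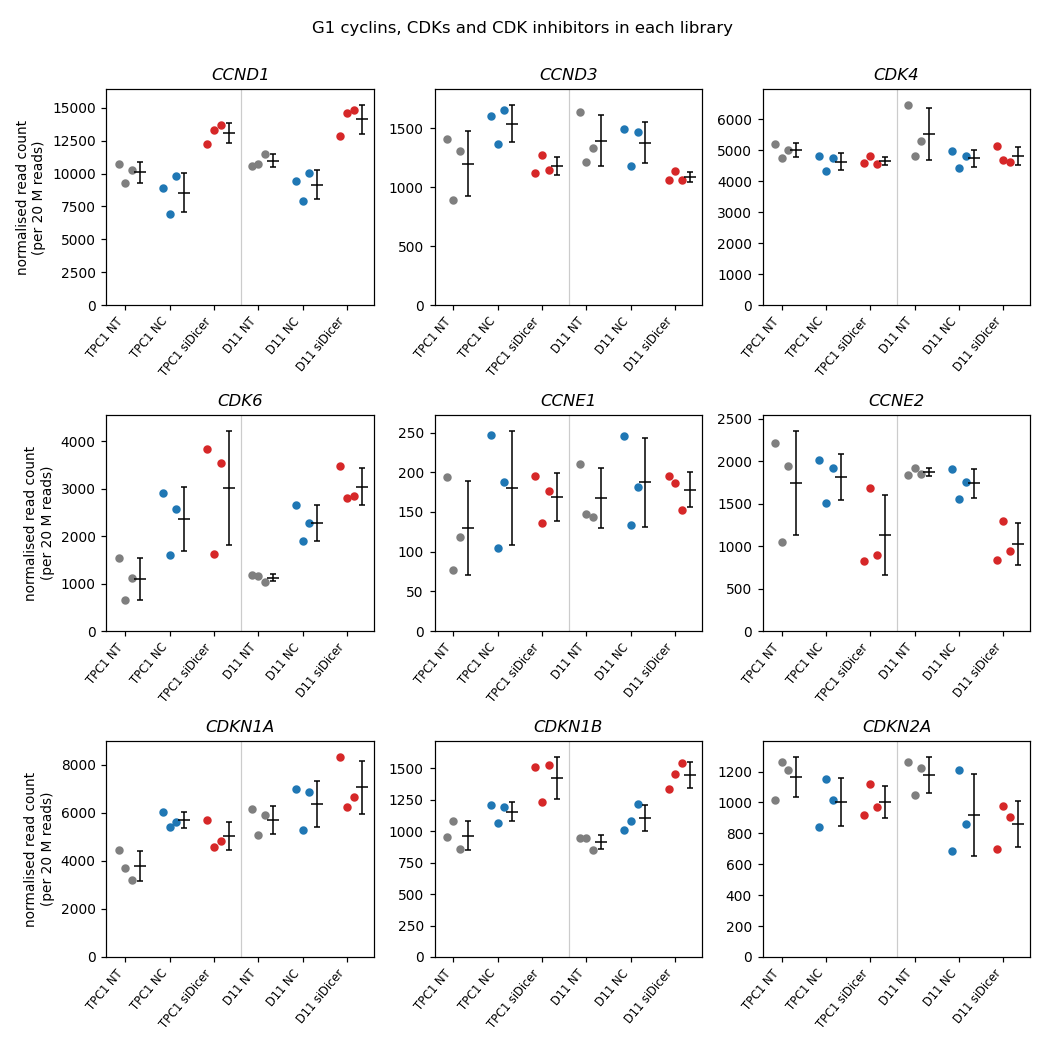
Normalised read count per 20 M reads of 9 genes in each of the 18 libraries (points, replicates 1 to 3 from left to right), with the mean and SD of each group of 3 (black bars). CCND1 and CDKN1B in siDicer lie above all controls of the same line, CCNE2 in D11 siDicer lies below all D11 controls, and CDK6 increases from NT to NC to siDicer in D11 with no overlap.

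CDK6 was the member that differed most between the groups, and it did so already between the 2 kinds of control. It lies on chromosome 7 (92604921 to 92836573, minus strand) and encodes a kinase activated by D cyclins. In TPC1 it measured 1532, 653 and 1123 in NT, 2909, 1601 and 2576 in NC, then 3852, 1630 and 3546 with siDicer. In D11 it measured 1186, 1152 and 1045 in NT, 2654, 1890 and 2273 in NC, then 3489, 2801 and 2849 with siDicer. In D11 the 3 groups followed each other without overlap, NT lowest and siDicer highest. In TPC1 every NC library lay above every NT library, but siDicer replicate 2 lay among the NC values, and each of the 3 libraries numbered 2 was the lowest of its group.

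The negative control siRNA alone was accompanied by a mean CDK6 level 2.14 times that of NT in TPC1 and 2.02 times in D11. The log2 change of NC against NT was 1.00 ± 0.14 in D11 with an adjusted p of 0.0321, so CDK6 was called, the only 1 of the 9 tested members. Of all 17992 genes tested there, 0.15% were called higher. With replicate numbers as a block, which pair the D11 libraries, the adjusted p was 0.00423. The call was lost (adjusted p 0.0587 to 0.219) without NC replicate 1, 2 or 3 or NT replicate 3, although the log2 change stayed at 0.88 to 1.12, and after trends with GC content and transcript length were removed from each library (log2 change 0.74, adjusted p = 0.115). In TPC1 the change was 1.14 ± 0.32 with an adjusted p of 0.241 and 0 members were called by limma-trend or voom (2 at an unadjusted p under 0.05), where 0.0333% of 18008 genes were called higher. Without the libraries numbered 2, the TPC1 change of 1.06 had an adjusted p of 0.00571. With the replicate block the adjusted p of CDK6 in TPC1 was 0.000283 and it was called, although the numbers were not treated as pairing the TPC1 libraries.

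Transcript length moved with this comparison in D11. The median log2 change of NC against NT over 1194 genes with transcripts over 8 kb was 0.23 in D11, against -0.05 for genes up to 1 kb, and the canonical CDK6 transcript has 11663 bases. In TPC1 the same median was 0.03 over 1211 genes. The part of length in the CDK6 values was not tested beyond the trend removal above.

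Against the joined controls, CDK6 in siDicer changed by 0.93 ± 0.27 on the log2 scale in D11 (adjusted p = 0.0264, called) and by 0.87 ± 0.43 in TPC1 (adjusted p = 0.202). Without the TPC1 libraries numbered 2 it was 0.96 (adjusted p = 0.0642). Set against NT alone, the change was 1.44 in TPC1 (adjusted p = 0.0624) and 1.43 in D11 (adjusted p = 0.000283). Set against NC alone, the siRNA control that received the same transfection, it was 0.43 in D11 (95% interval 0.13 to 0.73, adjusted p = 0.0535) and 0.30 in TPC1 (95% interval -0.52 to 1.11, adjusted p = 0.622). So most of the distance between siDicer and NT was also present between NC and NT, and the remainder did not pass the threshold in either line. The D11 call against the joined controls was also lost without siDicer replicate 1, 2 or 3 (adjusted p 0.107, 0.0586 and 0.0780), with log2 changes of 0.827, 0.985 and 0.973. It was kept with GC and length trends removed (0.77, adjusted p = 0.025) and without D11 NT replicate 1 (log2 change 0.84, adjusted p = 0.0406).

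CDK4, the other kinase partner of the D cyclins, was called in no comparison. Its values were 4320 to 5208 in the TPC1 controls and 4563 to 4806 in TPC1 siDicer, and 4433 to 6446 and 4622 to 5146 in D11. The log2 change of siDicer against controls was -0.05 (95% interval -0.21 to 0.12) in TPC1 and -0.08 (-0.32 to 0.16) in D11. Per kb, CDK6 made up 3.35% to 6.92% of the sum of CDK4 and CDK6 in TPC1 NT, 8.57% to 13.3% in NC and 7.90% to 17.5% in siDicer. In D11 the shares were 4.45% to 5.70%, 9.73% to 11.9% and 13.1% to 14.6%. CDK4 remained the main kinase transcript of the pair in every library. Its exons share 1369 bases with TSPAN31 on the opposite strand and no source used here gives the strand setting of the counting, so its value is uncertain to that extent.

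**Figure D3:**
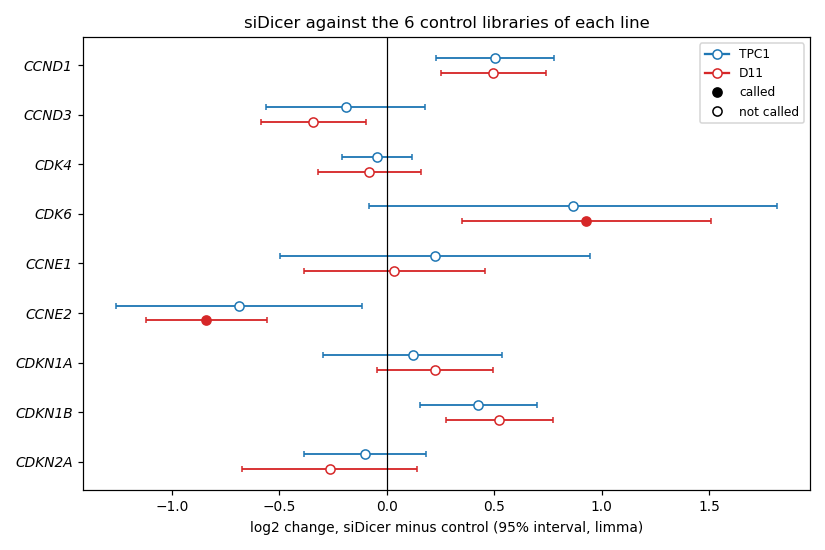
Log2 change of siDicer against the 6 control libraries of each line for 9 genes, with 95% intervals from limma (blue TPC1, red D11, filled points for genes past both the adjusted p of 0.05 and the fold of 1.5). CDK6 and CCNE2 in D11 are the 2 called changes, and the TPC1 and D11 intervals of each gene overlap.

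The E cyclins activate CDK2 at the entry into S phase, and only CCNE2 was called. CCNE2 measured 2222, 1052 and 1948 in TPC1 NT, 2015, 1512 and 1917 in NC, then 822, 1681 and 896 with siDicer. In D11 it measured 1838, 1923 and 1849 in NT, 1907, 1559 and 1757 in NC, then 834, 1302 and 938 with siDicer. In D11 all 3 siDicer libraries lay below all 6 controls, and the mean was 56.8% of the control mean. In TPC1 the libraries numbered 2 broke this pattern: siDicer replicate 2 was within the control range and NT replicate 2 was the lowest control.

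The log2 change of CCNE2 was -0.84 ± 0.13 in D11 (adjusted p = 0.00108, called) and -0.69 ± 0.26 in TPC1 (adjusted p = 0.102). Without the 3 TPC1 libraries numbered 2, the TPC1 change was -1.24 with an adjusted p of 0.000114. CCNE2 was also called in TPC1 without NT replicate 2 (-0.83) or siDicer replicate 2 (-1.01). Unlike CDK6, it depended little on the kind of control: in D11 the change was -0.89 (adjusted p = 0.00368) against NT alone and -0.79 (adjusted p = 0.00979) against NC alone. CCNE2 shares 1629 exon bases with INTS8 on the opposite strand.

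CCNE1 was the least abundant tested member, between 77 and 247 in all 18 libraries, with no exon shared with another gene. Its siDicer values were 195, 136 and 177 in TPC1 and 195, 187 and 153 in D11, inside the control ranges of 77 to 247 and 134 to 246. The log2 change was 0.22 (95% interval -0.50 to 0.94) in TPC1 and 0.03 (-0.39 to 0.46) in D11. Both intervals lay above the CCNE2 estimate of the same line, but the CCNE2 interval in TPC1 (-1.26 to -0.11) overlapped that of CCNE1. In D11 the CCNE2 interval was -1.12 to -0.56. The changes of CCNE1 and CCNE2 were not tested against each other. Per kb, CCNE2 exceeded CCNE1 by 4.34 to 7.27 times in the D11 controls and by 2.39 to 3.90 times in D11 siDicer, and by 4.57 to 9.16 and 2.36 to 6.92 times in TPC1.

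Among the inhibitors, CDKN1B, which holds cyclin E and CDK2 inactive in quiescent cells, was higher in siDicer. It lies on chromosome 12 (12685498 to 12722369, plus strand) and carries the pair of miR-221 seed matches printed above. In TPC1 it measured 952, 1085 and 860 in NT, 1208, 1067 and 1192 in NC, then 1508, 1232 and 1528 with siDicer. In D11 it measured 944, 948 and 853 in NT, 1012, 1084 and 1218 in NC, then 1336, 1459 and 1541 with siDicer. In both lines every siDicer library lay above every control library, and in D11 every NC library lay above every NT library.

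The log2 change of CDKN1B was 0.43 ± 0.12 in TPC1 (adjusted p = 0.0423) and 0.52 ± 0.11 in D11 (adjusted p = 0.00694), both short of the fold threshold. Without the TPC1 libraries numbered 2 the TPC1 change was 0.54 (adjusted p = 0.0226). The change was 0.30 (adjusted p = 0.122) and 0.39 (adjusted p = 0.0296) against NC alone in TPC1 and D11, and 0.56 (adjusted p = 0.0474) and 0.66 (adjusted p = 0.00310) against NT alone, where CDKN1B was called in D11. Between NC and NT its log2 difference was 0.26 in TPC1 (adjusted p = 0.453) and 0.27 in D11 (adjusted p = 0.353). With GC and length trends removed, the D11 siDicer change was 0.59 and called.

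CDKN1A, the inhibitor induced by p53, differed more between the control groups than between siDicer and the controls in TPC1. There it measured 4460, 3705 and 3214 in NT, 6048, 5414 and 5641 in NC, then 5704, 4600 and 4845 with siDicer. In D11 it measured 6145, 5070 and 5907 in NT, 6987, 5286 and 6865 in NC, then 8315, 6236 and 6654 with siDicer. Every TPC1 NC library lay above every TPC1 NT library, while the siDicer values in both lines overlapped the controls.

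The log2 change of CDKN1A between NC and NT was 0.60 ± 0.13 in TPC1 (unadjusted p = 0.00134, adjusted p = 0.136) and 0.15 ± 0.13 in D11 (adjusted p = 0.636). Without the libraries numbered 2 the TPC1 value was 0.63 with an adjusted p of 0.0364. With the replicate block the adjusted p in TPC1 was 0.00423 and CDKN1A was called, although the numbers were not treated as pairing those libraries. For siDicer against the joined controls, the change was 0.12 (95% interval -0.30 to 0.54) in TPC1 and 0.23 (-0.04 to 0.49) in D11. Against NT alone it was 0.42 (adjusted p = 0.107) in TPC1, and against NC alone -0.18 (adjusted p = 0.267), so its sign in TPC1 depended on the control.

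CDKN2A, whose locus encodes p16, an inhibitor of CDK4 and CDK6, was present in both lines. It was at 841 to 1262 in the TPC1 controls and at 921, 1122 and 971 in TPC1 siDicer. In D11 the controls were at 685 to 1260 and siDicer at 698, 980 and 904. The log2 change was -0.10 (95% interval -0.39 to 0.18) in TPC1 and -0.27 (-0.67 to 0.14) in D11. In D11 it was -0.46 (adjusted p = 0.0426) against NT alone and -0.07 (adjusted p = 0.853) against NC alone. The gene shares 593 exon bases with CDKN2B-AS1 on the opposite strand, which averaged 54.6.

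**Figure D4:**
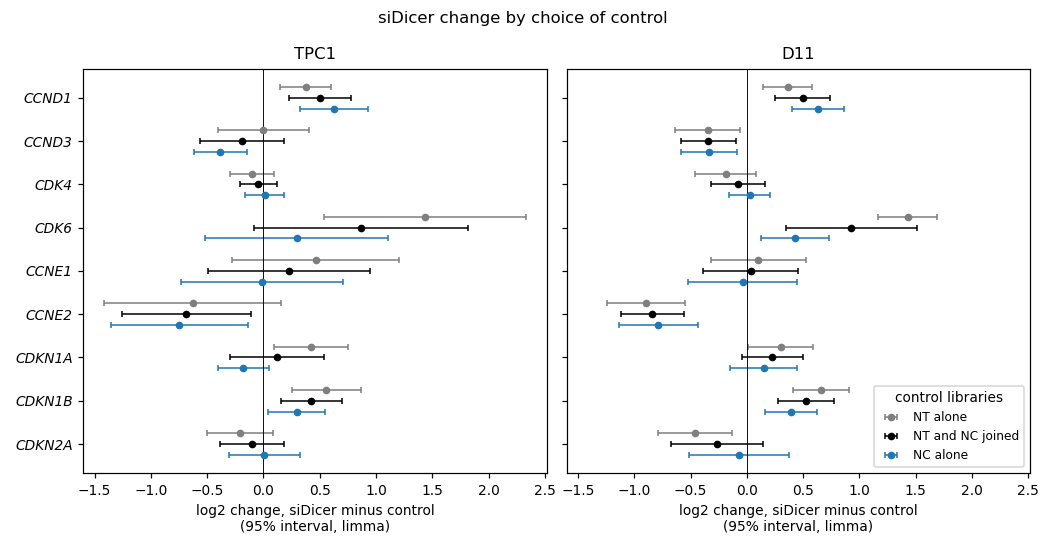
Log2 change of siDicer with 95% intervals from limma when the control libraries are NT alone (grey), NT and NC joined (black) or NC alone (blue), for 9 genes in TPC1 and D11. The CDK6 points run from 1.44 (TPC1) and 1.43 (D11) against NT to 0.30 and 0.43 against NC, CCND1 moves the opposite way, and CCNE2 stays between -0.89 and -0.63.

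Taking the 9 tested members as a group, 0 were called in TPC1 by limma-trend or by voom, with 3 at an unadjusted p under 0.05, where 3.22% of 18475 genes were called higher and 4.16% lower. In D11 1 was called higher (CDK6) and 1 lower (CCNE2), where 5.26% of 18413 genes were called higher and 6.75% lower. At the adjusted p alone, 2 members were higher in TPC1 (CCND1 and CDKN1B) against 5.88% of all genes, and 0 were lower against 7.94%. In D11 3 were higher (those 2 and CDK6) against 9.38%, and 2 were lower (CCNE2 and CCND3) against 12.8%. The 3 siDicer libraries lay above all 6 controls for 2 members in TPC1 and 3 in D11, where 7.62% and 11% of all tested genes did. They lay below all 6 for 0 members in TPC1 and 2 in D11, where 9.91% and 14.1% did. The 3 NC libraries lay above the 3 NT libraries for 2 members in TPC1 (CDK6 and CDKN1A) and 2 in D11 (CDK6 and CDKN1B), against 8.2% and 10.8% of all genes. The median log2 change of siDicer over the members was 0.12 in TPC1 and 0.03 in D11, beside -0.04 over all genes in each line. With 9 genes, a count of 0 to 3 is no property of the group. The siDicer comparisons and the NC comparisons share control libraries, so they are not independent of each other.

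The Dicer1 (+/-) clone was set against TPC1 without siRNA to Dicer1, as 6 D11 against 6 TPC1 controls, of which 3 in each line (NC) had received the negative control siRNA. DICER1 was lower by 0.68 ± 0.12 on the log2 scale in D11 (adjusted p = 0.00561), and 0 of the 9 members were called by limma-trend or voom, where 1.02% of 18814 genes were. The members' log2 differences ranged from -0.07 (CDKN1B) to 0.37 (CDKN1A). CDKN1A was higher in D11 at an unadjusted p of 0.00392, the only member under 0.05, with an adjusted p of 0.179. For CDK6 the difference was 0.05 (95% interval -0.35 to 0.44) and for CCNE2 0.06 (-0.26 to 0.38).

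Whether the response to siDicer differed between the lines was tested as an interaction. The differences of the log2 changes, D11 minus TPC1, were between -0.19 (CCNE1) and 0.11 (CDKN1A), with a smallest unadjusted p of 0.482 and adjusted p of 1. Over 19181 genes 0% were called by limma-trend, 0 members by voom, and 133 had an unadjusted p under 0.05. The interval for CDK6 ran from -1.09 to 1.22 and that for CCNE2 from -0.80 to 0.49, so that a difference of the size of the changes themselves was not detectable for CDK6. That CDK6 and CCNE2 were called in D11 and not in TPC1 therefore does not show a difference between the lines.

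Other genes of the pathway were read from 7 lists of 50 genes (CDKN2B is in 2 lists), each tested in every comparison. Among 13 E2F target genes, which act in DNA replication and S phase, 7 fell in D11 and 0 rose, with a median log2 change of -0.59, where 6.75% of all genes were called lower. In TPC1 2 of 13 fell, with a median of -0.40, where 4.16% of all genes did. Without the libraries numbered 2 it was 11 of 13 with a median of -0.67, beside 7.94% of 17889 genes. Cyclin A2 (CCNA2) fell by 0.86 in D11 and by 0.67 in TPC1 on the log2 scale (adjusted p 0.000422 and 0.0126). In TPC1 the CCNA2 change was -0.57 against NT alone (adjusted p = 0.0886) and -0.78 against NC alone (adjusted p = 0.0126). RRM2, a subunit of ribonucleotide reductase, fell by 0.94 in D11 (adjusted p = 0.000649) and measured -0.77 in TPC1 (adjusted p = 0.0539). The count of E2F targets called lower in D11 was 9 against NT alone and 3 against NC alone, where 8.63% and 4.93% of all genes were called lower. In TPC1 the count was 0 against NT alone and 2 against NC alone, where 2.74% and 3.09% of all genes were called lower.

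Of the 4 other CDK inhibitors, 2 rose and 1 fell in D11 and 0 were called in TPC1, beside the same shares over all genes (5.26% higher and 6.75% lower in D11, 3.22% and 4.16% in TPC1). Against NC alone in D11, 1 of the 4 was called higher and 0 lower, where 3.93% and 4.93% of all genes were. CDKN1C (p57) rose by 1.58 in D11 (adjusted p = 0.00339) and measured 1.55 in TPC1 (adjusted p = 0.0509), and CDKN2B (p15), the neighbour of CDKN2A, rose by 0.80 in D11 (adjusted p = 0.00785). Against NC alone CDKN2B changed by 0.55 (adjusted p = 0.0243), short of the fold threshold, and its log2 difference between NC and NT in D11 was 0.49 (adjusted p = 0.267). CDKN2C (p18) fell by 0.69 in D11 (adjusted p = 0.00692), and by 0.56 against NC alone (adjusted p = 0.0437), which misses the fold. Of these 4, without the TPC1 libraries numbered 2, 2 were called higher and 1 lower in TPC1 as well, where 6.34% and 7.94% of all genes were. The 9p21 neighbours of CDKN2A numbered 3, of which CDKN2B alone was called in D11 and 0 in TPC1. Without the libraries numbered 2, 2 of the 3 were called higher in TPC1, where 6.34% of all genes were. Against NC alone 0 were called in D11, where 3.93% of all genes were called higher.

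Of 13 pocket proteins and E2F factors, 2 fell in TPC1, where 4.16% of all genes were called lower. In D11 2 fell and 1 rose, where 6.75% of all genes were called lower and 5.26% higher. Against NT alone and against NC alone 1 of the 13 was called lower in TPC1, where 2.74% and 3.09% of all genes were. E2F2, an activator, fell by 1.24 in D11 and by 1.19 in TPC1 (adjusted p 0.000649 and 0.0128), and E2F8, a repressor, fell by 1.15 and 1.07 (adjusted p 0.00241 and 0.00748). The TPC1 call of E2F2 was lost against NT alone (adjusted p = 0.0626) and against NC alone (adjusted p = 0.0586). Of 8 parts of the ubiquitin ligases that degrade cyclins D and E and p27, 1 fell in TPC1, and 2 fell and 1 rose in D11, beside the shares over all genes given above. Against NC alone 1 of the 8 was called lower and 0 higher in D11, where 4.93% and 3.93% of all genes were. In TPC1 0 were called against either control alone. FBXO4 fell by 0.80 in D11 and 0.68 in TPC1 (adjusted p 0.00149 and 0.0194), and CKS1B, a cofactor for p27 degradation, fell by 0.63 in D11 (adjusted p = 0.00224). None of the 5 genes of CDK2 and its activators and none of 5 upstream regulators was called in either line. At the adjusted p alone 3 of the former were lower in D11, where 12.8% of all genes were. No gene of these lists was called between NC and NT, between the lines or in the interaction. A lower total of a transcript in bulk RNA may come from fewer cells in a phase or from less RNA per cell, which cannot be told apart here.

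The expression profiles most like those of the 3 most variable members were listed over the 18 libraries, by the root mean square difference of centred log2 values. For CDK6 they were RAB30 (0.204) and NEDD4 (0.206), against a median of 0.745 over 12507 genes. For CCNE2 they were RRM2 (0.117) and AC007240.1 (0.117), against a median of 0.507. CCND2 was the third, but its values are at the floor and its nearest profiles (PLOD2 at 0.471 and BHLHE40 at 0.476, against a median of 0.681) lay much farther off.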

How the data were processed

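Paired-end reads had been mapped to GRCh38 and counted per gene of Ensembl release 90, for which the submitters' processing notes name STAR 2.5.3a and HTSeq 0.9.1. The authors then scaled each library to 20 M reads. The deposited values are a normalised score, the scaled read count rounded to a whole number, and not raw counts, so no count model was used. Column totals were 20010707 to 20018484. The value of 1 read (0.861 to 1.77) gave the depth of each library. In 16 libraries, where 1 read is worth more than 1, 99.7% to 99.9% of values were whole multiples of it after rounding. Recovered reads were used for 1 alternative test, for the floor of 3 reads and to compare replicates. Floors cover counting error only. How strand was set in counting is not given in the sources used here, although the library kit marks strand.

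limma 3.58.1 in R 4.3.3 was fitted (lmFit, eBayes with trend) to log2(value + 1) of the genes that reached 10 in 3 or more libraries of a fit. On this scale changes of low genes are understated. Tests were two-sided with Benjamini-Hochberg adjustment over all genes tested, and a call required both an adjusted p below 0.05 and a fold of 1.5 or more. Comparisons were siDicer against joined NT and NC in each line, NC against NT of the same line, the 6 D11 against the 6 TPC1 controls with transfection as a covariate, and the product of line and siDicer over 18 libraries. Labels do not say that replicates came from separate cultures, so p-values measure the spread between these libraries, which may be technical. The script was tested on simulated data: of genes changed by 1 on the log2 scale, it recovered 81% in the TPC1 and 90% in the D11 siDicer comparison, 64% and 67% in NC against NT, 98% between the lines and 70% in the interaction. The spread for this was estimated within each group of 3, so a shift between NC and NT, as in CDK6, was no part of it. Recovery of changes smaller than 1 was not tested.

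The main fits held no replicate term in either line, and a replicate block was run only as an alternative. The replicate number was read as pairing libraries in D11, where 9 of 9 pairs with the same number had deviations correlated above 0.1 (0.106 to 0.473). The number was not so read in TPC1, where 7 of 9 did (0.086 to 0.509), so the lines differ little on this measure. What a number stands for is not given in the labels. No 2 libraries of a group agreed within sampling noise.

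The 10 genes, the lists and the tests were chosen with earlier results of these data known. Named besides the members were DICER1, cell type markers, up to 2 called genes per pathway list with the smallest adjusted p in the D11 siDicer comparison, and for the 3 members with the largest SD over the libraries the 2 genes of nearest profile (mean of 100 or more). Pathway lists were other CDK inhibitors, CDK2 and activators, pocket proteins and E2F, ubiquitin ligase parts, E2F target genes, upstream regulators and 9p21 neighbours. Alternatives were median-of-ratios and trimmed mean (TMM) scaling, no filter or a minimum of 50, pseudocounts of 0.5 and 10, voom on recovered reads, a replicate block, 6 groups as terms, calls without the fold, NT alone or NC alone for the controls, and leaving out each library. Chosen after seeing the data were removal of GC and length trends and leaving out the 3 TPC1 libraries numbered 2. Positions, lengths and 3′ UTRs came from GENCODE release 44. Some marker values are not reported here.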

Additional observations from a re-analysis of the deposited data

How the results depend on the processing

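Of 986 values recomputed under 32 settings, 903 were marked as kept, 789 log2 changes of single genes and 114 counts of called members. A log2 change was marked as kept if its sign and its call stayed. In the D11 siDicer comparison, CCND3 was so marked although its adjusted p went from 0.0474 to 0.158 with GC and length trends removed. Kept counts could also differ from the main count, as in that comparison with NT alone, where CDKN1B was called in addition. None of the 33 log2 changes that turned sign was called in any fit. The call of CCNE2 in D11 was kept under every setting run. For siDicer in TPC1 (0 members called), 2 were called with 6 groups as terms (CCNE2 and CDK6), 2 with no fold minimum, 1 with NC alone, 1 without the TPC1 libraries numbered 2, and 0 to 1 on leaving out each library. For siDicer in D11 (2 called), 5 were called with no fold minimum and 1 to 2 on leaving out each library. The genes called there also changed with the setting. With NC alone CCND1 was called and CDK6 was not. With NT alone, and with GC and length trends removed, CDKN1B was called besides CDK6 and CCNE2. For NC against NT in TPC1 (0 called), 2 were called with the replicate block (CDK6, adjusted p = 0.000283, and CDKN1A, adjusted p = 0.00423), 1 with 6 groups as terms and 2 without the libraries numbered 2. By the rule of every same-number correlation above 0.1, the numbers pair only the D11 libraries, where the block changed no call. In TPC1 and equally in D11, a library correlated best with its own number in 16 of 18 comparisons with another group. This is a hint from the data and not the design. For NC against NT in D11 (1 called), 0 were called with no filter on low values, with 6 groups as terms and with GC and length trends removed, and 0 to 1 on leaving out each library. The line comparison and the interaction stayed at 0 under every setting. The causes were not tested.

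The values that turned sign with NC alone as the control were CCNE1 (-0.014 in TPC1, -0.035 in D11), CDK4 (0.010 and 0.024) and, in TPC1, CDKN1A (-0.18) and CDKN2A (0.009). With GC and length trends removed they were CCND3 between NC and NT in D11 (0.058) and CDK6 in the interaction (-0.056). Without the TPC1 libraries numbered 2 they were CCNE2 between NC and NT in TPC1 (-0.082), CCNE2 (-0.17) and CDK6 (-0.25) between the lines, and CCNE2 (0.40) and CDK6 (-0.035) in the interaction. On leaving out each library, changes that turned sign ranged from -0.04 to 0.14 (CCNE1, siDicer in D11), -0.21 to 0.33 (CCNE2, NC against NT in TPC1), -0.11 to 0.11 (CCND3) and -0.079 to 0.356 (CCNE1) for NC against NT in D11, -0.10 to 0.14 (CCNE2) and -0.11 to 0.16 (CDK6) between the lines, and -0.35 to 0.17 (CCNE2) and -0.33 to 0.31 (CDK6) in the interaction. Depth limits CCND2, which no comparison could test.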
